A study of Mus musculus with 104 samples.

Results

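The GABA-A beta, gamma, delta and rho subunit genes described here are Gabrb1, Gabrb2, Gabrg1, Gabrg3, Gabrd, Gabrr1 and Gabrr2, which make 7 of 18193 genes measured by name on the arrays. They were taken as a fixed list of genes, with 1 probe set each: among the probe sets annotated to that gene symbol alone, the one with the highest mean over all arrays. The 7 genes have 19 such probe sets in all, and both Gabrd probe sets are shown. The study measured messenger RNA in 52 regions of the adult mouse nervous system and its attached glands on Affymetrix arrays, 2 per region. All samples came from Balb/c males aged 7 to 8 weeks that had been kept in 12 h of light and 12 h of darkness. The labels add that samples were taken in that cycle or in constant darkness, without saying which for a given region. No drug, mutation or transgene was involved. Tissue was punched on both sides from frozen slices, and the RNA of 1 region was pooled over 6 time points set 4 h apart. Whether the 2 arrays of a region stand for separate animals is not stated in the labels, so p-values measure the spread between arrays, which may be technical. Values are RMA levels on the log2 scale, where a step of 1 is 2-fold.

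GABA-A receptors are pentameric chloride channels, and they carry most fast inhibition in the brain. Most receptors combine alpha and beta subunits, which together form the GABA binding site, with a gamma or a delta subunit. Receptors with a gamma subunit include those found at synapses and those sensitive to benzodiazepines. Receptors with the delta subunit lie outside synapses and carry a tonic current, best known from cerebellar granule cells, the thalamus and the dentate gyrus. The rho subunits form channels of their own, once called GABA-C receptors, which are best known from bipolar cells of the retina.

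The regions were set in classes by their names. Those compared were cerebellar cortex (lobe and vermis), thalamus (5 regions), hypothalamus (12), isocortex (3), hippocampal formation (4), striatum (3), amygdala (2), olfactory bulb (2), midbrain (5), hindbrain nuclei (4) and spinal cord (2), each against the other regions of brain and spinal cord. Retina, pituitary and pineal gland were each set against all 49 regions of brain and spinal cord. A gene was called where limma's adjusted p over 18193 genes was under 0.05 and the difference was at least 2-fold. The 2 arrays of a region correlated at 0.972 to 0.998, and the median of all values was 7.39. Most marker genes of the lists named here were higher in the labelled tissue. In cerebellar cortex 9 of 10 cerebellar granule cell genes were called higher, and in thalamus 5 of 6 thalamic relay neuron genes. So were 5 of 5 photoreceptor genes in retina, 7 of 7 anterior pituitary genes in pituitary and 3 of 4 pinealocyte genes in pineal gland. The bipolar cell genes of retina were mixed and are given below. The retina arrays stood apart, since all 7 anterior pituitary genes were called higher there too. Growth hormone, Gh, was at 14.76 and 14.61 on the retina arrays and at 14.65 and 14.76 on the pituitary arrays, while the median of the 52 regions was 7.51. The arrays labelled lateral hypothalamus also went against their label, since Pmch and Hcrt, the hormone precursors that mark it, were at 7.66 and 7.73 and at 7.32 and 7.78 there but averaged 13.98 and 11.11 in the dorsomedial nucleus, and hypothalamic results are given without those arrays too. The samples are bulk tissue, so fewer cells of a type and less RNA per cell cannot be told apart.

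Several of the genes sit in clusters of subunit genes, which is why their positions are given (RefSeq, build GRCm38.p6). Gabrg1 (chr5:70751047-70842617), Gabra2, Gabra4 and Gabrb1 (chr5:71657921-72149572) lie in that order on chromosome 5, with Cox7b2 between Gabra2 and Gabra4. Gabrb2 (chr11:42419515-42632591) follows Gabra6 on chromosome 11, and Gabrg3 (chr7:56716463-57387215) precedes Gabra5 on chromosome 7. Gabrr2 (chr4:33057712-33095865) and Gabrr1 (chr4:33132556-33163588) are neighbours on chromosome 4, with 36690 bases between them. Gabrd (chr4:155384979-155398098) lies on the same chromosome, between Prkcz and Cfap74.

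The 250 bases before a listed start of Gabrr2, Gabrr1 and Gabrg1 are shown because the rho pair were highest in the same 2 regions and Gabrg1 was highest in hypothalamus. They are RefSeq sequence of build GRCm38.p6, printed 5′ to 3′ on the strand of the gene. The windows are chr4:33062862-33063111 on the plus strand for Gabrr2, chr4:33132306-33132555 on the plus strand for Gabrr1 and chr5:70842618-70842867 on the minus strand for Gabrg1. The Gabrr2 window precedes a start inside the span given for that gene. Capitals mark matches on either strand to TAATCC, the core that CRX and OTX proteins bind, to TAATTA, a homeodomain core, or to TATAAA, the TATA box.
Gabrr2: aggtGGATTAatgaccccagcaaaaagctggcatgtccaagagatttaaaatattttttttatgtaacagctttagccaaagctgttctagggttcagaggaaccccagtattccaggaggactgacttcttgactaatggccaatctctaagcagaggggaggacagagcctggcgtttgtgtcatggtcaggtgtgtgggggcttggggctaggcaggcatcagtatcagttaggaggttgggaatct
Gabrr1: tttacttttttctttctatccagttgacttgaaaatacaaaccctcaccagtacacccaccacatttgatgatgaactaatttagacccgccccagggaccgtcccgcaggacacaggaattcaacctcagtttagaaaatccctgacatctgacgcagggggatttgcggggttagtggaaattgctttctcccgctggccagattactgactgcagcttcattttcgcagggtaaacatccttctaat
Gabrg1: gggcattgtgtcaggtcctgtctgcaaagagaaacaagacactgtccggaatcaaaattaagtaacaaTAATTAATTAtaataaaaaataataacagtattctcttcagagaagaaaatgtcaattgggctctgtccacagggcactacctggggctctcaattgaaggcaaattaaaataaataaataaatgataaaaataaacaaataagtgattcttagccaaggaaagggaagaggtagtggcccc
The Gabrr2 window held 1 match to TAATCC, on the reverse strand, and 6.25% of 32851 RefSeq windows of this length hold one. The Gabrg1 window held 2 matches to TAATTA that overlap, and 4.84% of the windows hold at least 1. Gabrr1 held none of the 3 motifs, and TATAAA, found in 12.4% of all windows, was in none of these 3. The GC share was 47.6% for Gabrr2, 46% for Gabrr1 and 35.6% for Gabrg1, where the median window has 52.4%. A match is a description of these letters and shows no binding. RefSeq entries were matched for 6 of the 7 genes.

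Across the 52 regions, 6 of the 7 genes passed the F test of limma with a range of at least 2-fold between region means, as did 60.3% of all genes. The exception was Gabrr1, whose region means spanned 0.94 (adjusted p = 0.00113). The range was 6.29 for Gabrb2, 5.10 for Gabrb1, 5.09 for Gabrg1, 5.07 for Gabrd, 1.39 for Gabrg3 and 1.23 for Gabrr2. The ranges of Gabrb2, Gabrb1, Gabrg1 and Gabrd were larger than those of 97.5% to 99.3% of all genes, while the ranges of the rho genes and Gabrg3 were larger than those of 36.6% to 55.9%. The low end was pineal gland for Gabrb1 and Gabrb2 and retina for Gabrg1, so tissues outside the brain set these ranges. Within brain and cord the region means ran from 10.11 to 12.44 for Gabrb1, 8.34 to 12.28 for Gabrb2 and 7.58 to 11.14 for Gabrg1.

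Gabrd, the delta subunit of tonic receptors, had its highest level in cerebellar cortex. It was at 10.89 and 11.00 in the cerebellar lobe and at 10.82 and 10.89 in the vermis, against a lowest of 5.79, a median of 7.14 and a highest of 10.73 over the arrays of the other regions of brain and spinal cord. All 4 cerebellar arrays thus lay above every other array. The difference was 3.19 (SE 0.112, 9.13-fold), with limma's adjusted p = 2.46e-34. The adjacent cerebellar nucleus, labelled as its own region, had 7.04 and 7.41. Cerebellar cortex exceeded it by 3.67 (SE 0.190, limma adjusted p = 1.04e-24), without overlap. Gabra6, the alpha subunit that joins delta in cerebellar granule cells, was 6.46 higher in cerebellar cortex than in the other regions (SE 0.192, limma adjusted p = 4.6e-38). The granule cell list moved with it, at a mean level of 11.00 in cerebellar cortex and 7.80 in the other regions. Purkinje cell genes moved too, with 4 of 6 called higher and mean levels of 13.22 in cerebellar cortex and 9.50 in the other regions, and 4 of 5 genes of microglia and macrophages were called lower, with means of 8.06 and 9.18. Against the cerebellar nucleus, 9 of 10 granule cell genes and 5 of 6 Purkinje cell genes were higher, and 4 of 5 genes of microglia and macrophages and 3 of 5 myelin genes were lower. The part of these lists in the Gabrd, Gabrb1 and Gabrg1 results of cerebellar cortex was not tested.

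The next Gabrd levels were in thalamus and striatum. In thalamus the lowest of 10 arrays was 9.70, the median 10.24 and the highest 10.73, against 5.79, 7.07 and 11.00 in the other regions. The difference was 2.67 (SE 0.0734, limma adjusted p = 5.56e-40). Within thalamus the ventral anterior and ventrolateral nuclei led with 10.73 and 10.59, and the medial geniculate nucleus was lowest with 9.99 and 9.70. The difference between the motor relay nuclei and the auditory one was not tested. Striatum had a lowest of 10.02, a median of 10.24 and a highest of 10.70, against 5.79, 7.10 and 11.00 elsewhere in brain and cord. The difference of 2.60 (SE 0.0926, limma adjusted p = 3.09e-34) had an adjusted p of 0.0549 when region means were taken as the samples. In the order of regions, the lobe lay above the vermis, though its lower array and the upper vermis array both round to 10.89, and the vermis lay above the ventral anterior and ventrolateral nuclei, beyond the spread of their arrays. From there the medial caudate putamen, lateral geniculate body, olfactory tubercle, ventral posterior nuclei, mediodorsal nucleus and lateral caudate putamen followed, with no neighbours apart beyond their spread.

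Isocortex came at an intermediate level, with a lowest of 9.19, a median of 9.36 and a highest of 9.57, against 5.79, 7.10 and 11.00 in the other regions. This was a difference of 1.61 (SE 0.0926, limma adjusted p = 2.34e-23), not kept with region means as the samples (adjusted p = 0.54). In the hippocampus Gabrd separated the dentate gyrus from the CA fields. The dentate gyrus had 8.72 and 8.78, against 7.92 and 8.10 in CA1 and 7.40 and 7.09 in CA2 and CA3. The groups did not overlap, and the difference was 1.13 (SE 0.190, limma adjusted p = 2.95e-06). Of the dentate granule cell list, 5 of 6 genes were called higher in dentate gyrus, at a mean level of 10.26 in dentate gyrus and 7.70 in the CA fields. Of CA pyramidal cell genes 3 of 5 were called lower, with means of 8.75 in dentate gyrus and 10.62 in the CA fields, and of myelin genes 4 of 5, with means of 10.28 and 11.58. The part of these lists was not tested. The hippocampal formation as a whole differed from the other regions by only -0.01 (95% interval -0.17 to 0.15). In the olfactory bulb, Gabrd had 8.52 and 8.87 in the anterior part and 8.79 and 8.92 in the posterior part, a difference of 0.97 from the other regions (SE 0.112, limma adjusted p = 3.73e-11) that fell short of 2-fold. It was 1.06 without the first anterior array and 1.00 without the first posterior array, past that limit both times.

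Gabrd was low in hypothalamus, midbrain, hindbrain nuclei and spinal cord. Over 24 hypothalamic arrays the lowest was 5.89, the median 6.23 and the highest 6.82, against 5.79, 8.46 and 11.00 over the other regions of brain and cord. The difference was -2.10 (SE 0.0516, limma adjusted p = 6.62e-43), and -2.08 without the arrays labelled lateral hypothalamus. No hypothalamic array reached the median of all values, and the ventral tegmental area had the lowest region mean with 5.97 and 5.79. Midbrain was lower by a difference of -1.17 (SE 0.0734, limma adjusted p = 4.97e-21), hindbrain nuclei likewise by -1.17 (SE 0.0811, limma adjusted p = 1.05e-19), and spinal cord by -1.72 (SE 0.112, limma adjusted p = 1.24e-20). Myelin genes were higher in hindbrain nuclei, 3 of 5 called, and in spinal cord, 4 of 5, and their part was not tested. The 3 Gabrd calls were lost with region means as the samples, at adjusted p of 1, 0.498 and 0.615 in that order. Midbrain was not uniform, since the inferior colliculus had 8.41 and 7.61 and the periaqueductal gray 6.22 and 6.11. In all, 24 of 52 regions had a Gabrd mean that reached the overall median.

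The other Gabrd probe set did not carry this pattern. Its region means spanned only 0.66, between 6.12 in the suprachiasmatic nucleus and 6.78 in the cerebellar lobe, and all lay below the median of all values. None of its 51 pairs of neighbours in the order was apart beyond the spread of the arrays, whereas 9 pairs were for the probe set used. Over the 16 comparisons its differences ran between -0.23 in pineal gland and 0.37 in cerebellar cortex against cerebellar nucleus, and by limma over all probe sets it passed in 0 of the 12 comparisons where Gabrd was called, with an unadjusted p under 0.05 in 8 of them. With the mean of both probe sets, 7 of those 12 calls fell short of 2-fold, among them dentate gyrus against CA fields at 0.60 and isocortex at 0.86.

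**Figure D1:**
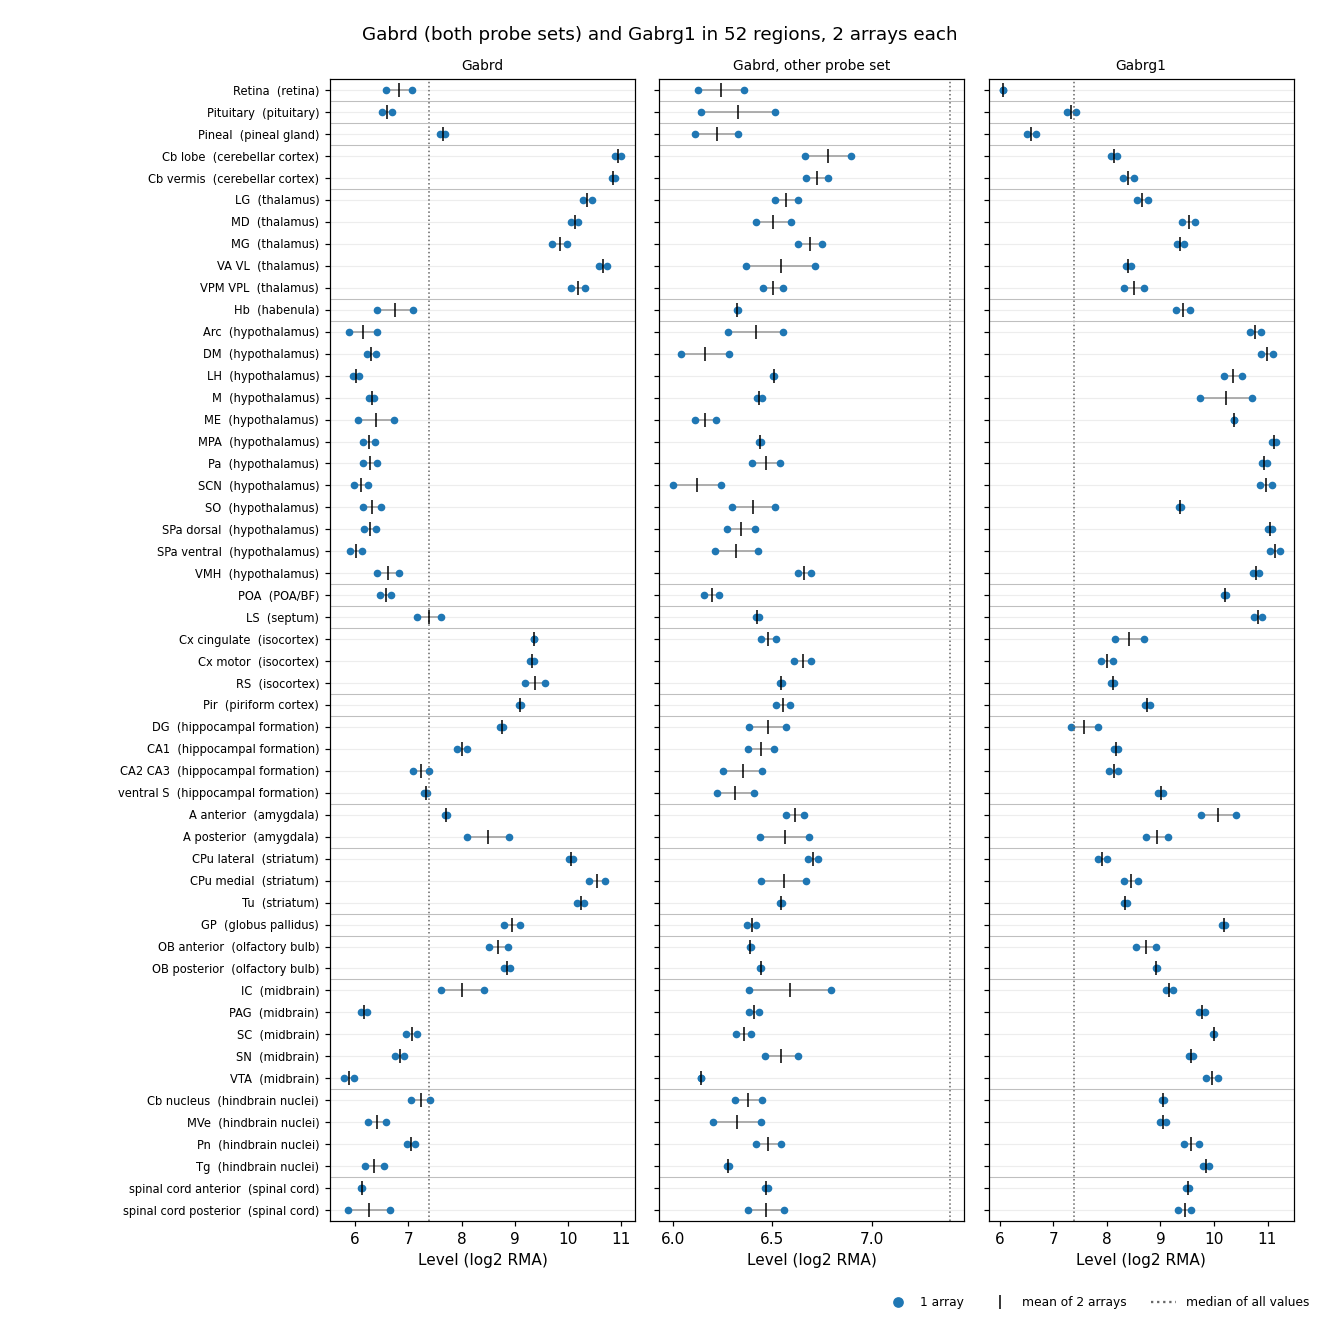
Levels (log2 RMA, horizontal axes, with a scale of their own in each panel) of Gabrd by both probe sets and of Gabrg1 in 52 regions, each row a region with its class in brackets; points are arrays, ticks are means of 2 arrays and the dotted line is the median of all values, 7.39. Gabrd is highest in the cerebellar lobe and vermis, its other probe set stays between 6.12 and 6.78 in region mean, and Gabrg1 is highest in hypothalamic regions.

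Gabrg1, a gamma subunit, was highest in hypothalamus, where Gabrd was low. Of its 52 region means, 49 reached the overall median. Hypothalamus had a lowest of 9.36, a median of 10.87 and a highest of 11.23 over 24 arrays, against 7.32, 9.02 and 10.90 in the other regions. The difference was 1.64 (SE 0.0411, 3.12-fold, limma adjusted p = 1.72e-42), the other Gabrg1 probe set gave 1.69, and the difference was 1.67 without the arrays labelled lateral hypothalamus. The order of regions opened with the ventral subparaventricular zone (11.05 and 11.23) and the medial preoptic area (11.09 and 11.15), which did not differ beyond their spread. Below them the dorsal subparaventricular zone, dorsomedial nucleus, suprachiasmatic nucleus and paraventricular nucleus followed, all with arrays between 10.86 and 11.10. The lateral septal nucleus, outside the hypothalamus, stood next with 10.75 and 10.90. The supraoptic nucleus was the hypothalamic region with the least, 9.38 and 9.36.

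Low Gabrg1 levels marked cortical, striatal and cerebellar tissue. In isocortex the lowest array was 7.89, the median 8.13 and the highest 8.69, against 7.32, 9.46 and 11.23 elsewhere in brain and cord. The difference was -1.34 (SE 0.0737, limma adjusted p = 3.69e-24). Similar differences were found for the hippocampal formation, -1.32 (SE 0.0645), striatum, -1.28 (SE 0.0737), and cerebellar cortex, -1.22 (SE 0.0893), with limma adjusted p of 5.7e-27, 1.4e-23 and 9.88e-19 in turn. All 4 kept their direction with region means as the samples, but none passed, with adjusted p of 0.333, 0.105, 0.158 and 0.241 in the order given. The dentate gyrus had the lowest level of any brain region, 7.32 and 7.84, and lay below the CA fields (8.21 and 8.14 in CA1, 8.21 and 8.04 in CA2 and CA3) by a difference of -0.57 (SE 0.151, limma adjusted p = 0.00269), short of 2-fold. The mammillary body showed the widest spread between arrays, 10.71 and 9.74.

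Gabrg3, another gamma subunit, varied little by the probe set used. Its highest region means were in the dorsomedial nucleus (8.33 and 8.05), the olfactory tubercle (8.12 and 8.20) and the lateral septal nucleus (8.16 and 8.16), and neighbours among them overlapped. Only 2 of 51 pairs of neighbours in its order were apart beyond their spread. Hypothalamus was higher by 0.34 (SE 0.0330) and striatum by 0.49 (SE 0.0592), and cerebellar cortex differed by -0.71 (SE 0.0718), with limma adjusted p of 3.67e-14, 1.04e-10 and 3.64e-13. None of these reached 2-fold. The lowest brain level was in the cerebellar lobe, at 6.69 and 7.03. Probe sets of this gene disagreed, since another one gave 1.42 for striatum, -1.09 for retina and -1.10 for pineal gland, all past 2-fold.

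Gabrb1, a beta subunit, was widespread in the brain, and 51 of its 52 region means reached the overall median. The dorsal subparaventricular zone was highest with 12.47 and 12.40, beyond the spread of the next region, the dentate gyrus (11.95 and 11.91). CA2 and CA3 (11.89 and 11.95), the ventral subparaventricular zone (12.00 and 11.84) and the paraventricular nucleus (11.94 and 11.89) came next. The dentate gyrus and these 3 regions had no neighbours among them apart beyond their spread, while the paraventricular nucleus lay above the mediodorsal nucleus beyond it. In the hippocampal formation the Gabrb1 arrays ran between 11.59 and 11.95 with a median of 11.88, against a lowest of 10.00, a median of 11.16 and a highest of 12.47 elsewhere. The difference of 0.73 (SE 0.0549, limma adjusted p = 3.23e-18) did not reach 2-fold, nor did that of hypothalamus, 0.53 (SE 0.0350, limma adjusted p = 4.95e-21). Cerebellar cortex was lower, with 10.27 and 10.03 in the lobe and 10.19 and 10.03 in the vermis, against 10.00, 11.26 and 12.47 as the lowest, median and highest of the other regions. That difference was -1.07 (SE 0.0760, limma adjusted p = 2.27e-19), the only class within brain and cord where Gabrb1 was called by the probe set used. Another probe set was also called lower in olfactory bulb, with -1.12 (limma adjusted p = 1.79e-19 over all probe sets). A further Gabrb1 probe set was flat. Its region means spanned 0.54, 0 of them reached the overall median, and it gave -0.21 in cerebellar cortex. The cerebellar difference was -0.91 with the mean of the Gabrb1 probe sets, and with region means as the samples limma's adjusted p was 0.0564. The pontine nucleus was as low, at 10.21 and 10.00.

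Gabrb2, the other beta subunit measured here, had its highest class mean in thalamus. Thalamus had a lowest of 11.74, a median of 11.98 and a highest of 12.56, against 8.21, 11.00 and 12.01 over the other regions. The difference was 1.12 (SE 0.0636, limma adjusted p = 8.71e-24), and all 4 other probe sets of the gene also passed. Beside the thalamic relay genes, 3 of 5 myelin genes were called higher in thalamus, with mean levels of 12.18 in thalamus and 11.17 in the other regions, and their part in the Gabrb2 and Gabrd results was not tested. The highest single regions were the ventral anterior and ventrolateral nuclei (12.56 and 12.00), the lateral geniculate body (12.15 and 12.13) and, outside thalamus, the inferior colliculus (11.99 and 11.91). The first and second of these overlapped, and the inferior colliculus lay below the geniculate body beyond its spread. The lateral septal nucleus followed, with arrays at 11.85 and 11.92, and was not apart from the inferior colliculus. The medial geniculate, ventral posterior and mediodorsal nuclei came after it, with no neighbours apart beyond their spread. Spinal cord was low, at 9.40 and 9.72 in the anterior part and 9.55 and 9.53 in the posterior part, against 8.21, 11.08 and 12.56 in the other regions. It differed by -1.51 (SE 0.0973, limma adjusted p = 7.67e-21), with an adjusted p of 0.156 with region means as the samples. Another 3 of the 4 other probe sets were called lower in spinal cord, and the remaining one gave -0.94, short of 2-fold. Myelin genes were high in the same cord samples, 4 of 5 called, with a mean level of 12.80 in spinal cord and 11.21 in the other regions, and their part was not tested. The median eminence (8.47 and 8.21) and the arcuate nucleus (9.23 and 9.43) had the lowest Gabrb2 levels within the brain. Cerebellar cortex was higher by 0.68 (SE 0.0973, limma adjusted p = 1.48e-08), short of 2-fold. Of the 4 other Gabrb2 probe sets, 2 were called higher there, with 1.00 and 1.32.

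**Figure D2:**
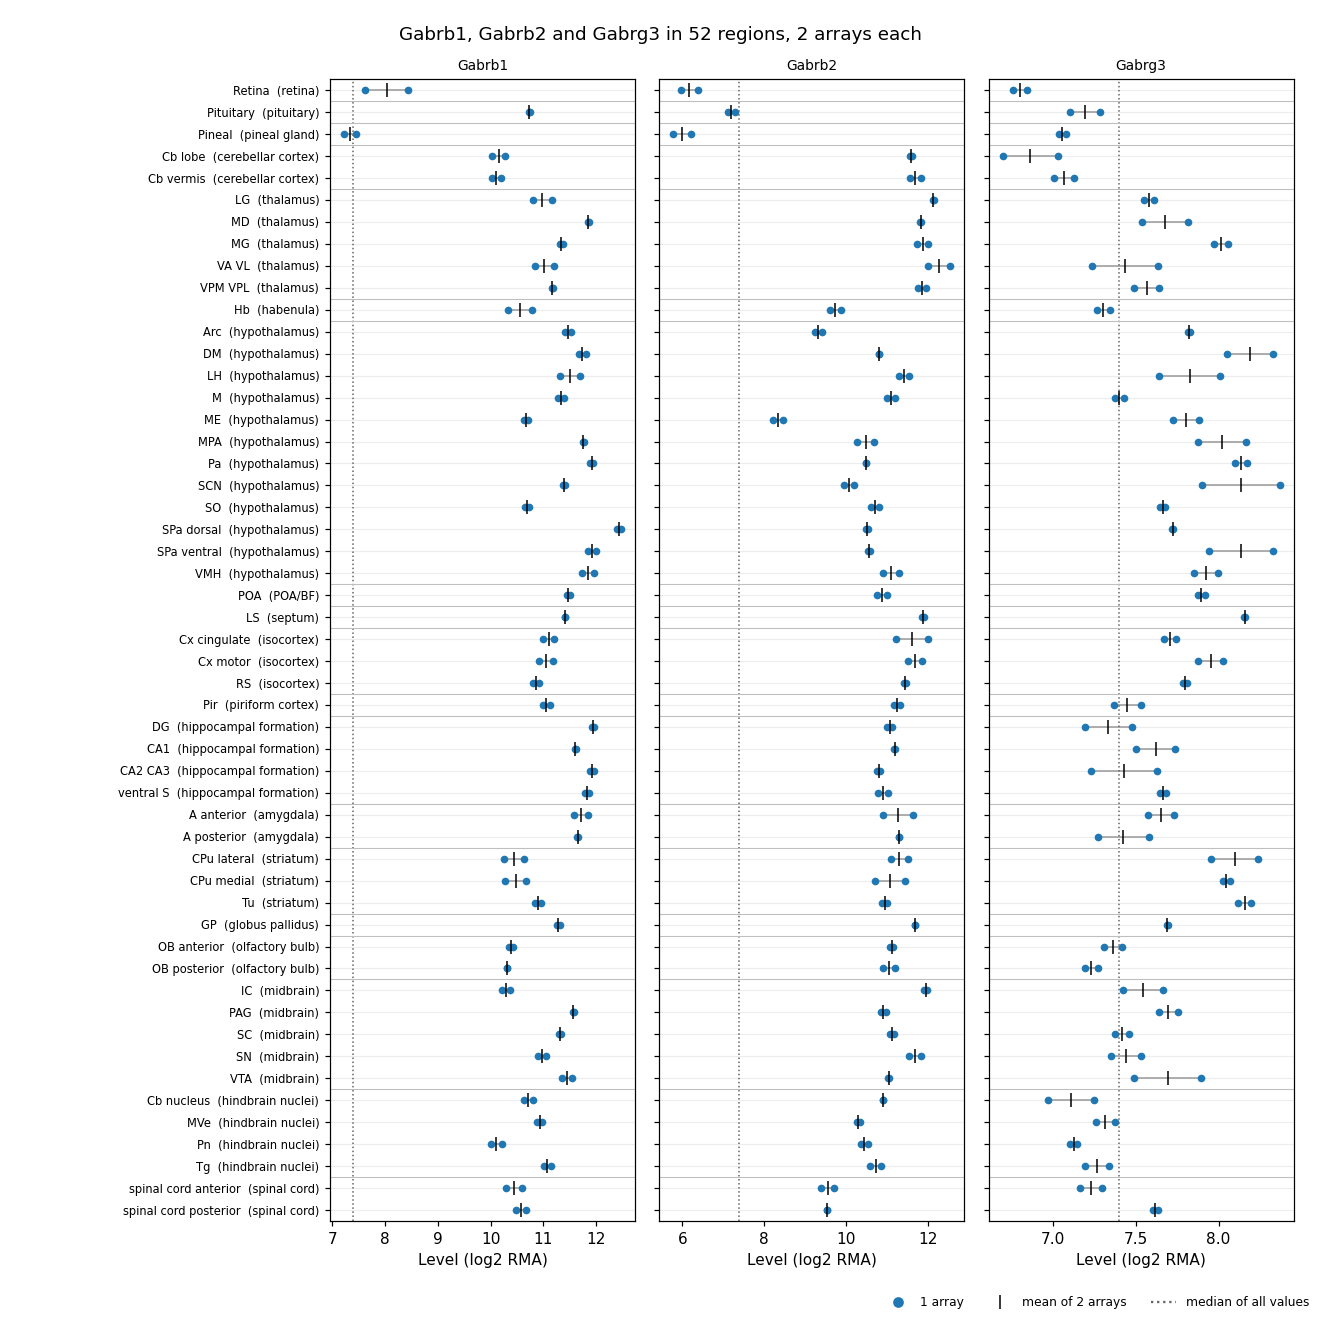
Levels (log2 RMA, horizontal axes, with a scale of their own in each panel) of Gabrb1, Gabrb2 and Gabrg3 in 52 regions, drawn as points for arrays and ticks for means of 2 arrays, with the median of all values as a dotted line. Gabrb1 peaks in the dorsal subparaventricular zone at 12.44, Gabrb2 in the ventral anterior and ventrolateral thalamus at 12.28, and both are lowest in pineal gland, at 7.33 and 5.99.

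The rho genes Gabrr1 and Gabrr2 were dim nearly everywhere, and both had their highest levels in the superior colliculus and the retina. Gabrr2 was at 7.44 and 7.60 in the superior colliculus and at 6.97 and 7.87 in the retina. Over the other 50 regions its highest single array was 6.95, in the medial geniculate nucleus, and the median region was at 6.54. All arrays of the superior colliculus and the retina thus lay above every array elsewhere. These were also the 2 regions whose Gabrr2 mean reached the overall median. Gabrr1 had 7.00 and 6.64 in the superior colliculus and 6.45 and 7.05 in the retina, with a highest array of 6.67 elsewhere, in the piriform cortex. For Gabrr1 the regions overlapped, and every region mean lay under the overall median, which makes its order one of dim signals. The superior colliculus was not compared on its own. Midbrain as a class was set against the other regions of brain and cord. Its differences were 0.19 for Gabrr2 (SE 0.0519, limma adjusted p = 0.00215) and 0.12 for Gabrr1 (SE 0.0495, limma adjusted p = 0.0542).

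Markers of adjoining tissue in the superior colliculus arrays were near the median of the 52 regions for most genes. The pineal gland genes Tph1 (5.61 and 5.60, median 5.40), Aanat (7.10 and 7.22, median 7.15) and Crx (7.15 and 7.06, median 7.08) were near it there. In pineal gland itself Tph1 was at 14.05 and 14.03 and Crx at 11.60 and 11.72. Aanat was only at 7.66 and 7.73 in pineal gland, so its level cannot mark pineal tissue in these arrays. The photoreceptor gene Sag was at 6.55 and 6.40 in the superior colliculus (median 6.48). Otx2, which was on the pinealocyte list, was at 10.32 and 9.86 in the superior colliculus. It was at 10.04 and 9.61 in retina and at 12.38 and 12.30 in pineal gland, with a median over regions of 5.42. Pineal gland had Gabrr2 at 6.46 and 6.64 and Gabrr1 at 6.47 and 6.47. Any part of Otx2 in the levels of the rho genes was not tested.

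In retina against brain and cord, Gabrr2 was 0.86 higher (SE 0.111, limma adjusted p = 4.63e-10) and Gabrr1 0.45 higher (SE 0.106, limma adjusted p = 0.000176), both short of 2-fold. The 2 retina arrays differed for both genes. The array with the higher rho levels (Gabrr2 7.87, Gabrr1 7.05) also had the higher photoreceptor level, with Sag at 13.32, and the lower pituitary level, with Prl at 13.44 and Fshb at 7.57. On the other array (Gabrr2 6.97, Gabrr1 6.45) Sag was at 12.18, Prl at 14.34 and Fshb at 9.78. Without that second-named array the Gabrr2 difference was 1.31 (limma adjusted p = 1.88e-13), past 2-fold. Bipolar cell genes were mixed in retina. Trpm1 was at 11.25 and 11.33 (median over regions 7.55), Cabp5 at 8.09 and 8.71 (7.25) and Isl1 at 8.50 and 8.48 (7.03). Below their medians were Prkca, at 10.48 and 10.30 (10.60), and Gnao1, at 9.85 and 9.81 (11.88).

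**Figure D3:**
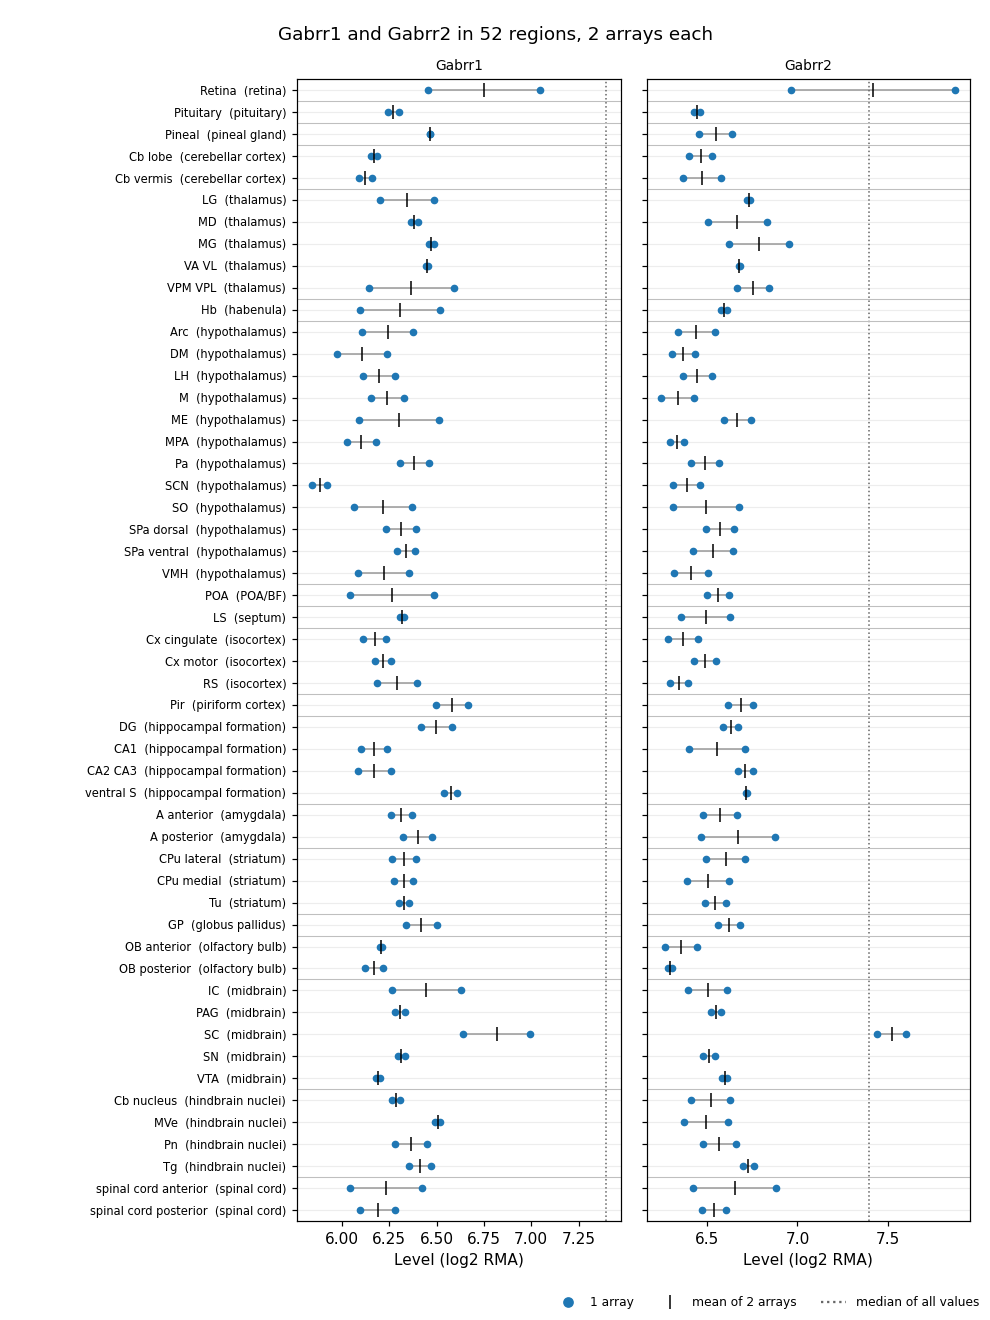
Levels (log2 RMA, horizontal axes, with a scale of their own in each panel) of Gabrr1 and Gabrr2 in 52 regions, drawn as points for arrays and ticks for means of 2 arrays, with the median of all values as a dotted line. The superior colliculus and retina hold the highest means of both genes, and for Gabrr2 their 4 arrays lie above all others.

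Counts over the 7 genes follow, each beside the share of all genes called the same way. In cerebellar cortex 1 gene was called higher (2.78% of all genes) and 2 lower (2.73%), namely Gabrd up and Gabrb1 and Gabrg1 down. In thalamus 2 were higher (1.32%), Gabrd and Gabrb2, where 1.09% of all genes were called lower, and Gabrg1 differed by -0.60 without reaching 2-fold. In hypothalamus Gabrg1 was the 1 called higher (0.967%) and Gabrd the 1 called lower (0.731%). In isocortex Gabrd was the 1 called higher (1.48%) and Gabrg1 the 1 called lower (0.726%), and in striatum the same 2 genes were called the same way (2.23% higher and 2.23% lower). The hippocampal formation had 1 lower, Gabrg1 (0.885% of all genes lower, 1.76% higher). Midbrain had 1 lower (0.143% of all genes lower, 0.341% higher), and hindbrain nuclei 1 lower (0.599% lower, 0.643% higher), Gabrd both times. Spinal cord had 2 lower, Gabrb2 and Gabrd (0.753% of all genes lower, 1.76% higher). In dentate gyrus against CA fields 1 was higher (0.676% of all genes higher, 1.65% lower), and in cerebellar cortex against cerebellar nucleus 1 was higher (3.4% higher, 3.22% lower), Gabrd in both.

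In the amygdala limma called 0 of the 7 genes higher (1.06%) and 0 lower (1.02%), and in the olfactory bulb 0 higher (2.7%) and 0 lower (1.08%), with 3 and 5 genes at an unadjusted p under 0.05. The largest amygdala difference was Gabrb1, at 11.84 and 11.58 in the anterior and 11.66 and 11.64 in the posterior amygdala, 0.55 above the other regions (SE 0.0760). The 2 amygdala samples differed in Gabrg1, with 10.41 and 9.75 in the anterior and 9.14 and 8.73 in the posterior sample. Gabrd ran the other way, with 7.70 and 7.73 in the anterior and 8.10 and 8.89 in the posterior sample. With 2 arrays per sample these values are a description, and neither difference was tested.

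Outside brain and cord, Gabrb2 and Gabrg1 were called lower in retina, pituitary and pineal gland, Gabrb1 in retina and pineal gland, and Gabrg3 in none of them. In retina 4 of the 7 genes were called lower (8.46% of all genes lower, 13% higher). Gabrb2 was at 6.38 and 5.97 in retina, 7.28 and 7.12 in pituitary and 6.20 and 5.78 in pineal gland, against a lowest of 8.21, a median of 11.05 and a highest of 12.56 in brain and cord. These were differences of -4.82 (SE 0.136), -3.80 (SE 0.136) and -5.01 (SE 0.136), with limma adjusted p of 4.62e-40, 4.71e-34 and 9.31e-41. No array of retina, pituitary or pineal gland reached the lowest one in brain and cord. Of the 4 other Gabrb2 probe sets, 4 were called lower in retina, 3 in pituitary and 4 in pineal gland. The smallest differences among them were -1.02, -0.89 and -1.23 in that order, the pituitary one short of 2-fold. Gabrg1 was also low, at 6.05 and 6.06 in retina, 7.42 and 7.26 in pituitary and 6.51 and 6.67 in pineal gland, against 7.32, 9.39 and 11.23, and it was called lower in each, by differences of -3.38, -2.09 and -2.84. The pituitary call had an adjusted p of 0.157 with region means as the samples.

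By the probe set used, Gabrb1 was higher in pituitary than in retina and pineal gland, a difference that was not tested. It was at 10.73 and 10.74 in pituitary, 8.44 and 7.63 in retina and 7.45 and 7.22 in pineal gland, against a lowest of 10.00, a median of 11.20 and a highest of 12.47 in brain and cord. It was therefore called lower in retina (-3.12, SE 0.106, limma adjusted p = 9.94e-36) and pineal gland (-3.82, SE 0.106, limma adjusted p = 3.07e-40), while the pituitary difference was -0.42 (SE 0.106, limma adjusted p = 0.000524). Probe sets of Gabrb1 disagreed on the pituitary, since another one gave -1.18 (limma adjusted p = 1.06e-14 over all probe sets), which is past 2-fold, and a further one -0.91. The flat Gabrb1 probe set gave -0.16 in pituitary, -0.23 in retina and -0.17 in pineal gland. Pituitary had 3 genes called lower (7.24% of all genes lower, 6.1% higher), and pineal gland 3 (7.78% lower, 7.52% higher). Gabrd, the third gene in pituitary, differed by -1.24 there (SE 0.157) and by -1.02 in retina (SE 0.157), and both calls were lost with region means as the samples (adjusted p of 0.705 and 0.653). Without the first retina array the Gabrd difference was -0.78, and with each array centred on its median it was -0.97, short of 2-fold both times. In pineal gland Gabrd was at 7.69 and 7.59, within the range of brain and cord (95% interval of the difference -0.51 to 0.12). The retina array with the higher Prl level (14.34) had the higher Gabrb1 level, 8.44, and the one with the lower Prl level (13.44) the lower Gabrb1 level, 7.63. Myelin genes were called lower in retina, pituitary and pineal gland, 5 of 5 in each, and astrocyte genes likewise, 4, 7 and 5 of 8 in that order. Genes of meninges and fibroblasts were called higher, 5, 4 and 6 of 7. The part of these lists, and of pituitary messenger RNA in the retina levels, was not tested.

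**Figure D4:**
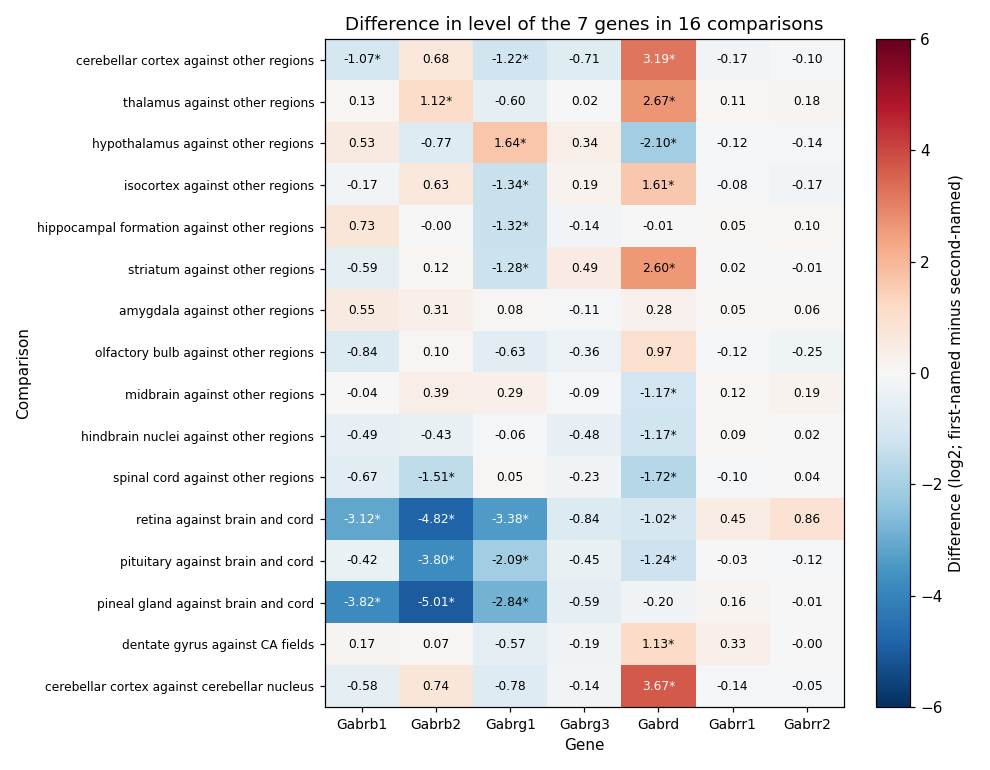
Differences in level (log2, colour and printed value) of the 7 genes, in columns, in 16 comparisons, in rows; each value is the first-named tissue minus the second-named, and an asterisk marks an adjusted p under 0.05 by limma with at least a 2-fold difference. Gabrd has values of 3.19 in cerebellar cortex and -2.10 in hypothalamus, and Gabrb2 has -5.01 in pineal gland.

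Other genes of the GABA pathway were read from a list of GABA-A and GABA-B subunits, clustering and transport proteins, chloride transporters and proteins of GABA synthesis and uptake. Of 8 other GABA-A subunit genes measured, 1 was called higher and 2 lower in thalamus (1.32% of all genes higher, 1.09% lower). Gabra4, the alpha subunit that pairs with delta in forebrain, was higher by 2.64 (SE 0.0662), and Gabra5 and Gabra2 differed by -2.13 and -1.16. In striatum 1 was higher, Gabra4 by 2.04 (SE 0.0836), and 2 were lower, Gabra3 by a difference of -1.24 and Gabra5 by -1.32. Of all genes, 2.23% were called higher and 2.23% lower in striatum. Hypothalamus had 2 higher, Gabrq by 1.22 (SE 0.0425) and Gabre by 1.06 (SE 0.0360), and 1 lower, Gabra4 at -1.34 (SE 0.0466). The shares of all genes in hypothalamus were 0.967% higher and 0.731% lower. Gabrq and Gabre, the theta and epsilon subunit genes, were thus called higher in the class where Gabrg1 was. Gabra4 and Gabrd were both called higher in thalamus, striatum and isocortex and both called lower in hypothalamus, hindbrain nuclei and spinal cord. In cerebellar cortex and midbrain Gabrd was called and Gabra4 was not, and in the hippocampal formation it was Gabra4, higher by 1.05. These comparisons share most of their samples. In retina, pituitary and pineal gland 4 of the 8 were called lower, with medians of -1.49, -1.01 and -1.57, beside medians over all genes between -0.05 and 0.02. Of all genes, 8.46%, 7.24% and 7.78% were called lower in these tissues, in that order. Of 5 genes of synthesis, release and uptake, 5 were called lower in retina, 5 in pituitary and 4 in pineal gland, where Gad1, which makes GABA, differed by -7.30 (SE 0.206). Of 16 clustering and transport genes, 8 were called lower in retina, among them Gphn, the scaffold gephyrin, at -1.04 (SE 0.0876).

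Across the 52 region means, pairs of subunit genes were described by Pearson's r, with the value over the 49 regions of brain and cord after it. The regions share the array platform and its normalization, and r is a description only. Gabrd and Gabrg1 ran against each other (-0.53 and -0.73). Gabrd ran with Gabra4 (0.70 and 0.77) and Gabrb2 (0.45 and 0.64), and Gabrb2 with Gabra4 (0.74 and 0.69). Gabrg1 ran with Gabrq (0.72 and 0.72) and Gabre (0.62 and 0.74). Of neighbours on a chromosome, Gabrr1 and Gabrr2 had 0.76 and 0.72, and 0.60 without the superior colliculus and the retina. Gabrb2 and Gabra6 had 0.20 and 0.22, Gabrg3 and Gabra5 0.33 and 0.17, and Gabrb1 and Gabra4, whose starts overlap by 388 bases on opposite strands, 0.47 and 0.14.

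**Figure D5:**
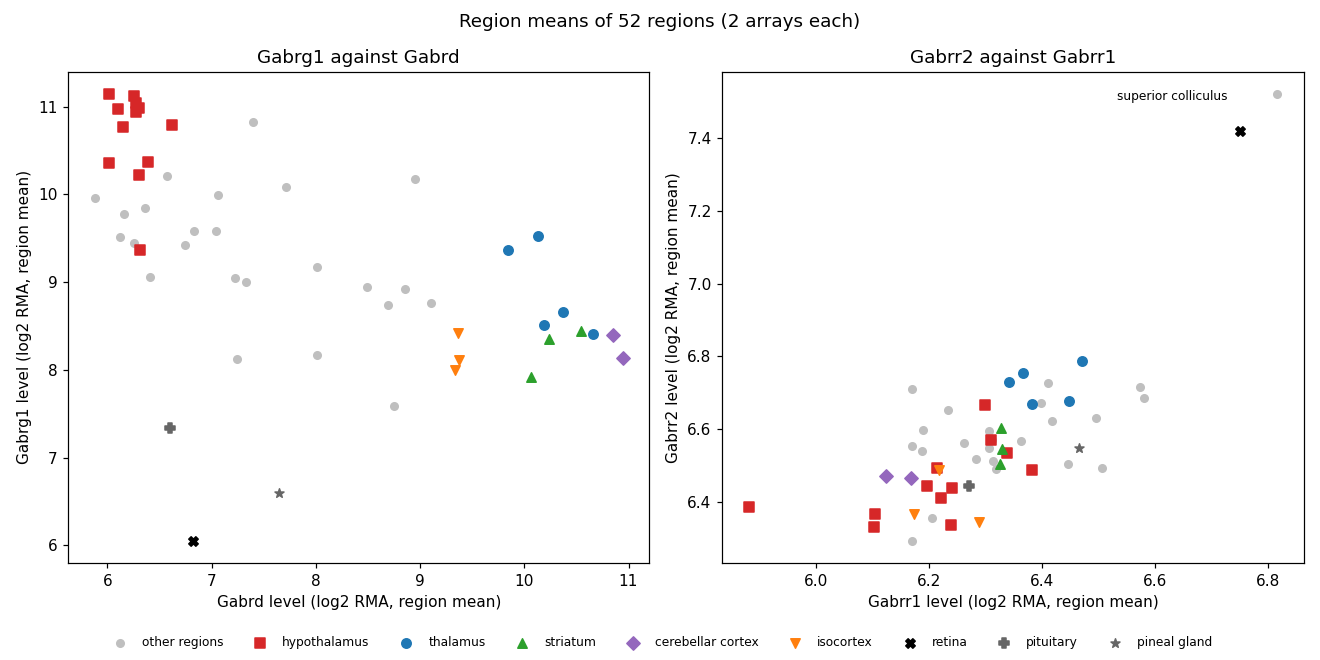
Region means (log2 RMA) of Gabrg1, vertical axis, against Gabrd, horizontal axis, on the left, and of Gabrr2 against Gabrr1 on the right, each point being 1 of 52 regions with named classes coloured. Hypothalamic regions hold high Gabrg1 and low Gabrd, cerebellar cortex and striatum the reverse, and superior colliculus and retina stand apart on the right.

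The genes most like each member were sought among 10025 genes whose highest region mean reached the median of all values and whose region means spanned at least 2-fold. For Gabrg1 these were Usp29, Ndn and Impact, with r of 0.94, 0.90 and 0.89 over 52 regions and 0.92, 0.90 and 0.87 without retina and pineal gland. For Gabrd they were Usp2 (0.83), Spsb3 (0.81) and Mef2a (0.81). Those of Gabrb2 were Phactr3, Fut9 and Tmod2, all at 0.87, which came down to 0.72, 0.75 and 0.71 without pineal gland and retina. For Gabrb1 they were B4galnt4 (0.85), Nexmif (0.84) and Tub (0.83), at 0.63, 0.70 and 0.70 without the same 2 regions. Gabrg3 was most like Tcf20 (0.79), Slc30a10 (0.77) and Slc25a14 (0.74). Gabrr1 was most like Il1f9 (0.77), Gabrr2 (0.76) and Col10a1 (0.73), at 0.77, 0.60 and 0.73 without the superior colliculus and the retina. Gabrr2 was most like Mcpt4, Cyp26a1 and Cma1, all at 0.71 and all highest in retina. Without the same 2 regions these came down to 0.59, 0.63 and 0.52.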

How the data were processed

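The table holds log2 expression values made by the authors with RMA, per the submitters' processing notes, whose version is not given in the sources used here. It has 45101 probe sets and 2 arrays for each of 52 regions, with values between 3.88 and 15.15 and array medians between 7.33 and 7.46. No further normalization was applied. Of the probe sets, 64 controls were left out, 34945 had 1 gene symbol, 932 had several and 9160 had none, and each of the 18193 genes was taken from its probe set with the highest mean. R 4.3.3 and limma 3.58.1 fitted a mean per region over all arrays (52 residual degrees of freedom, moderated with a prior of 7.87), and each comparison was a contrast of region means weighted equally, adjusted over all genes by Benjamini-Hochberg. The procedure was tested on simulated data. A filter on dim genes, quantile normalization, centring, array weights, a variance trend, other probe set rules, region means as the samples, a replicate block and leaving out arrays were tried as alternatives. Splits by the level of the hybridisation controls were added after seeing the data.

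Genes named are the 7 members, the 3 genes most like each, and a list of GABA pathway genes with cell type markers. The members and lists were chosen with earlier results of these data known. Only 2 arrays per region limit the precision, and arrays have no read depth. Replicate numbers were not used to pair the samples in the main fit. Over 1326 pairs of regions the deviations of same-numbered arrays had a median correlation of -0.0004 (-0.50 to 0.52). Such a median cannot show that no regions shared a pairing or batch, since positive and negative values offset each other. Orders of regions call 2 neighbours apart where the lower array of one lies above the higher array of the other. Promoter windows were read from RefSeq, GRCm38.p6, and matched by gene symbol.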

Additional observations from a re-analysis of the deposited data

How the results depend on the processing

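No called difference of the 7 genes turned round under any alternative. Changes of sign between uncalled differences were not counted. The counts of called genes stayed within 1.5 times under quantile normalization, centring of arrays, array weights, a variance trend, the filter on dim genes, all probe sets tested separately and the replicate block, with which limma still called 3 of the 7 in cerebellar cortex and 6 among the 52 regions. With the mean of the probe sets of a gene the count was 1 in isocortex and 1 in spinal cord, and 0 in midbrain, hindbrain nuclei and dentate gyrus against CA fields. Gabrd made each of these changes, and its other probe set is flat. With region means as the samples, so that differences among regions of a class count as error, 12 of 26 calls were kept and 14 lost. The count was then 1 in cerebellar cortex and 1 in pituitary, and 0 in isocortex, hippocampal formation, striatum, midbrain, hindbrain nuclei and spinal cord. The Gabrd call in cerebellar cortex and both calls in thalamus and in hypothalamus were kept. Leaving out 1 array at a time gave 0 to 1 in the olfactory bulb and 6 to 7 among the 52 regions, where Gabrr1 reached a range of 1.17 without the first retina array and 1.11 without the second superior colliculus array. Within regions of low hybridisation controls, a split chosen after seeing the data, the count was 1 in the olfactory bulb (Gabrd 1.42) and 0 in hindbrain nuclei (Gabrd -0.91), Gabrb2 in cerebellar cortex reached 1.04, and Gabrd fell short of 2-fold in retina (-0.69) and pituitary (-0.91). The cause of these moves was not tested. Gabrr1 and Gabrr2 are dim, which limits what their small differences show.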
